A study of Homo sapiens with 4 samples.

Results

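HOX cluster genes encode homeodomain transcription factors, and PRAC1 lies beside HOXB13 at the posterior end of the HOXB cluster. The members were every non-control spot whose platform symbol was HOXA, HOXB, HOXC or HOXD followed by digits, with PRAC1 added. They were 26 genes (25 HOX genes and PRAC1) of the 13016 genes named on the array, read by 27 probes because HOXB5 had 2. The HOXA cluster, on chromosome 7, was represented by 1 of its 11 genes in the RefSeq annotation, HOXA2. The HOXB cluster on chromosome 17 had 7 of 10, the HOXC cluster on chromosome 12 had 8 of 9, and the HOXD cluster on chromosome 2 had 9 of 9. A further 9 HOXA genes were named only in the descriptions of the scanner files and are given apart. HOXA3, HOXB3, HOXB9, HOXB13 and HOXC9 were not analysed here.

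In the embryo the HOX clusters are read in the order of the genes along the chromosome. Low-numbered genes are used in anterior structures and high-numbered genes in posterior ones, and the gut carries such a pattern along its length. The posterior HOX genes and PRAC1 are known in the distal colon and rectum, where PRAC1 encodes a small nuclear protein. Retinoic acid induces HOX genes from the anterior end, Polycomb complexes hold them silent and trithorax complexes of the KMT2 family keep them active. HOX proteins bind DNA with cofactors of the PBX and MEIS families. Promoters of many HOX genes are rich in CpG, the dinucleotide at which DNA is methylated in mammals.

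Decitabine-treated cells were DLD-1 and HT-29 cells, both established human colorectal cancer lines, that had grown for 24 h and then spent 96 h with 5-aza-2'-deoxycytidine (decitabine) at 1 µM. This nucleoside analogue is built into DNA and traps DNA methyltransferases, so that methylation is lost as cells divide. They were compared with untreated cells of the same line, and treated and untreated RNA were hybridised together on 2-colour oligonucleotide arrays. There were 4 arrays, 2 for each line, and on array 2 of each line the dyes were exchanged. The labels do not say that the 2 arrays of a line came from separate cultures, so each line counted as 1 replicate and the spread given within a line may be technical.

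Where the dyes were exchanged, the sources leave unsettled which of the file channels belongs to treated cells. Ratios below read channel 2 as treated on all arrays. The other reading, the order in which the labels list the channels, turns the sign of every array 2 ratio. Its values are given beside some of the results it alters, not all, and results shown without them may change as well. The HOXC median in DLD-1, for example, was 0.15 in the first reading and −0.03 in the labels' order. With channel 2 as treated, log2 ratios of the 2 DLD-1 arrays correlated at −0.45, those of the 2 HT-29 arrays at 0.001, and the 2 arrays that were not dye-exchanged at 0.51, across 18868 probes. HT-29 array 2 also stood apart in signal. Its average signal correlated at 0.38 with HT-29 array 1, against 0.66 between the 2 DLD-1 arrays. These correlations run across probes, which are not independent replicates.

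The sequences below are the 250 bases before the RefSeq start (build GRCh38.p14) of members on which the results turn: PRAC1 for its ratio in DLD-1, HOXD8 for its ratio on the non-exchanged arrays, and HOXC4, HOXC5, HOXD1 and HOXD3 for their difference in signal between the lines. They are written 5′ to 3′ on the gene's strand, with each CG, the possible target of methylation, in capitals. PRAC1 lies at chr17:48722519-48722768 on the minus strand. The others are on the plus strand, HOXC4 and HOXC5 sharing chr12:54016638-54016887, HOXD1 at chr2:176188418-176188667, HOXD3 at chr2:176157057-176157306 and HOXD8 at chr2:176129455-176129704.
PRAC1: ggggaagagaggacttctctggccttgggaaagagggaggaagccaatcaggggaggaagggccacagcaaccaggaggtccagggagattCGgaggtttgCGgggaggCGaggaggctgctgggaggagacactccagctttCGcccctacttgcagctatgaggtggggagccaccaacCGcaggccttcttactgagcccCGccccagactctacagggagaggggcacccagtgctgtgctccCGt
HOXC4 and HOXC5: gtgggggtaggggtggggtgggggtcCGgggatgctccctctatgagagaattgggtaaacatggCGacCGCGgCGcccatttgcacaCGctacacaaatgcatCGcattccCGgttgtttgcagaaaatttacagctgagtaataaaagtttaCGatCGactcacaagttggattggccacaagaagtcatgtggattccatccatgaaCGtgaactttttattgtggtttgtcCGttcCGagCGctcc
HOXD1: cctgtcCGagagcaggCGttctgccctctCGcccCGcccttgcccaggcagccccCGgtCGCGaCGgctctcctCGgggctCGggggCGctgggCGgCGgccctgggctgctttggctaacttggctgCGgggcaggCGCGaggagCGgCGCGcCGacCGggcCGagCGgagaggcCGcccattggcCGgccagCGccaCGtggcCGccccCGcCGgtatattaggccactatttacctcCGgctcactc
HOXD3: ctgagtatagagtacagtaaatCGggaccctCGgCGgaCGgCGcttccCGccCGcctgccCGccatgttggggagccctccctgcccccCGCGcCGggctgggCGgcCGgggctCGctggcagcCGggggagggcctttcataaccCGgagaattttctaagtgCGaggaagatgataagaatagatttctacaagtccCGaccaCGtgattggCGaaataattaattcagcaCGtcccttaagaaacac
HOXD8: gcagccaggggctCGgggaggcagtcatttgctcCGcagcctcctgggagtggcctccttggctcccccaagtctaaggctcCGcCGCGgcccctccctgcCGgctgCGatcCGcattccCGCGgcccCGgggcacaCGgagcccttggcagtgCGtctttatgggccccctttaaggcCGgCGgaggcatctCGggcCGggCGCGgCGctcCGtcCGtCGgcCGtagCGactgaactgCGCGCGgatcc

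These windows held 7 CG dinucleotides for PRAC1, 14 for the shared HOXC4 and HOXC5 start, 31 for HOXD1, 21 for HOXD3 and 28 for HOXD8. An entry was at hand for 12 of the HOX members, which have 11 distinct starts because HOXC4 and HOXC5 share 1. The median over the 11 starts was 21 CG, with a range from 4 in HOXD4 to 31 in HOXD1. The median of all 35116 promoters in the RefSeq table was 11, and 93.9% held at least 1 CG. HOXD1 therefore had more CG than most promoters, since 90.5% of them had as few or fewer, whereas 43.7% had as few as PRAC1 or fewer. CG was searched as the letters CG, which read alike on both strands. Methylation itself was not measured on these arrays.

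Signal was present for most members. A channel was taken to be above background if its net signal was over 2 SD of the local background. A probe was taken as measured in a line if this held for at least 1 channel on each of its arrays. In DLD-1 18 of 26 HOX probes (69.2%) were measured, beside 71.6% of all 29591 probes. In HT-29 23 of 26 (88.5%) were measured, beside 76.5% of all probes. PRAC1 was measured in DLD-1 only. Negative control spots passed the same rule at 1 of 96 (1.04%) in each line, and positions without a probe at 0 of 192.

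**Figure D1:**
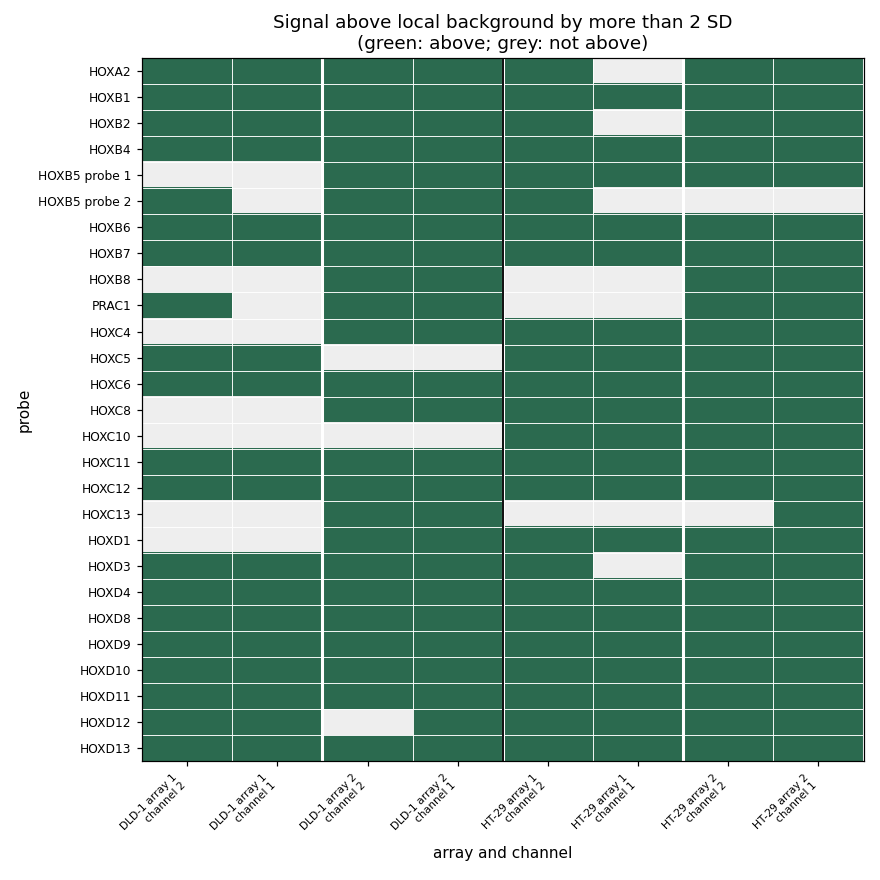
Signal above local background for each of the 27 member probes (rows) in each channel of each array (columns), green where the channel was above background by more than 2 SD and grey where it was not. HOXC10 was above background in neither channel of either DLD-1 array and in every channel of the HT-29 arrays, and HOXD1 was grey on DLD-1 array 1 only.

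Signal above background did not by itself mark a cell type. Of 12 markers of colorectal epithelium, 9 were measured in DLD-1 and 10 in HT-29. CDX1 and CDH17 were measured in neither line and LGALS4 was not measured in DLD-1. Of 8 markers of other cell types on the array, 6 were measured in each line, among them the fibroblast collagens COL1A1 and COL1A2 and the T cell gene CD3E, although both lines are epithelial. VIM was measured in neither. In bulk RNA, fewer cells of a type and less RNA per cell cannot be told apart.

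PRAC1 was the member with the highest ratio in DLD-1. Its net intensity (intensity minus local background) was 775 and 878 in treated DLD-1 cells, against 71.1 and 426 in untreated cells on arrays 1 and 2. The untreated channel of array 1 was not above background. The log2 ratios were 1.33 and 1.10, with a mean of 1.21 ± 0.16 (SD, n = 2 arrays). Treated cells were higher on both arrays, but with untreated signal measured on 1 of them the size of the ratio depends on the background correction. With background subtracted without normexp the ratios were 2.69 and 1.43, with a mean of 2.06. Read in the order of the labels the mean was 0.11, because the array 2 ratio changes sign. With the median of each of the 48 printed blocks set to 0 the ratios were 1.44 and 0.72. The authors' deposited log2 ratio was not usable for array 1 and was 1.29 on array 2.

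In HT-29 PRAC1 was at background on array 1, with net intensities of 39.7 in treated and −23.9 in untreated cells. On array 2 they were 2706 in treated and 4118 in untreated cells, a log2 ratio of −0.84. PRAC1 was therefore not measured in HT-29 and did not enter the test over both lines. Its 2-fold change in DLD-1 has no p, since a line is 1 replicate.

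No HOX probe reached a 2-fold change with the same sign on both arrays of a line. In DLD-1 PRAC1 alone of 19 measured member probes was at least 2-fold higher, and 0 were lower, beside 24 of 21197 probes (0.113%) higher and 2 (0.00944%) lower on the whole array. In HT-29 0 of 23 measured members changed in either direction, beside 26 of 22642 probes (0.115%) higher and 3 (0.0132%) lower. In the labels' order the members' counts were 0 in both lines, while 78 (0.368%) and 3 (0.0142%) of all probes passed in DLD-1 and 69 (0.305%) and 1 (0.00442%) in HT-29.

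Limma's moderated test of the 2 line means against 0 called 0 of 17 HOX genes tested, in either direction, at a Benjamini-Hochberg adjusted p of 0.05 over all 9103 genes. At an unadjusted p of 0.05 it also called 0 of the 17, against 456 of all genes. Over the array it called 17 genes (0.187%) higher and 4 (0.0439%) lower in treated cells. The 17 HOX means lay between −0.35 in HOXD10 and 0.27 in HOXD4, and the lowest adjusted p was 0.988. The SE was 0.22 for every gene, because the moderated test pooled the spread over all genes. The difference of a single gene between its 2 lines therefore did not enter its SE or interval. The 95% interval ran from −0.77 to 0.08 for HOXD10, a gene of the hindlimb and its motor neurons, and from −0.15 to 0.70 for HOXD4, an anterior gene singled out after its values were seen.

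HOXD8, a central gene of its cluster, had a mean that depended on how array 2 was read. Its net intensities in DLD-1 were 4592 and 1461 in treated cells, against 1689 and 3275 in untreated cells. In HT-29 they were 1053 and 2781 in treated cells, against 310 and 2505 in untreated cells. The log2 ratios were 1.08 and −0.97 in DLD-1 and 1.09 and −0.13 in HT-29. The first array of each line was near 1 and the dye-exchanged array was below 0 in both. The mean over lines was 0.27 (limma adjusted p = 0.988), and in the order of the labels 0.82 (limma adjusted p = 0.0738), where 57 genes (0.626%) were called higher and 2 (0.022%) lower. Without DLD-1 array 2, which leaves DLD-1 with its non-exchanged array alone, the mean of HOXD8 over the lines was 0.78.

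**Figure D2:**
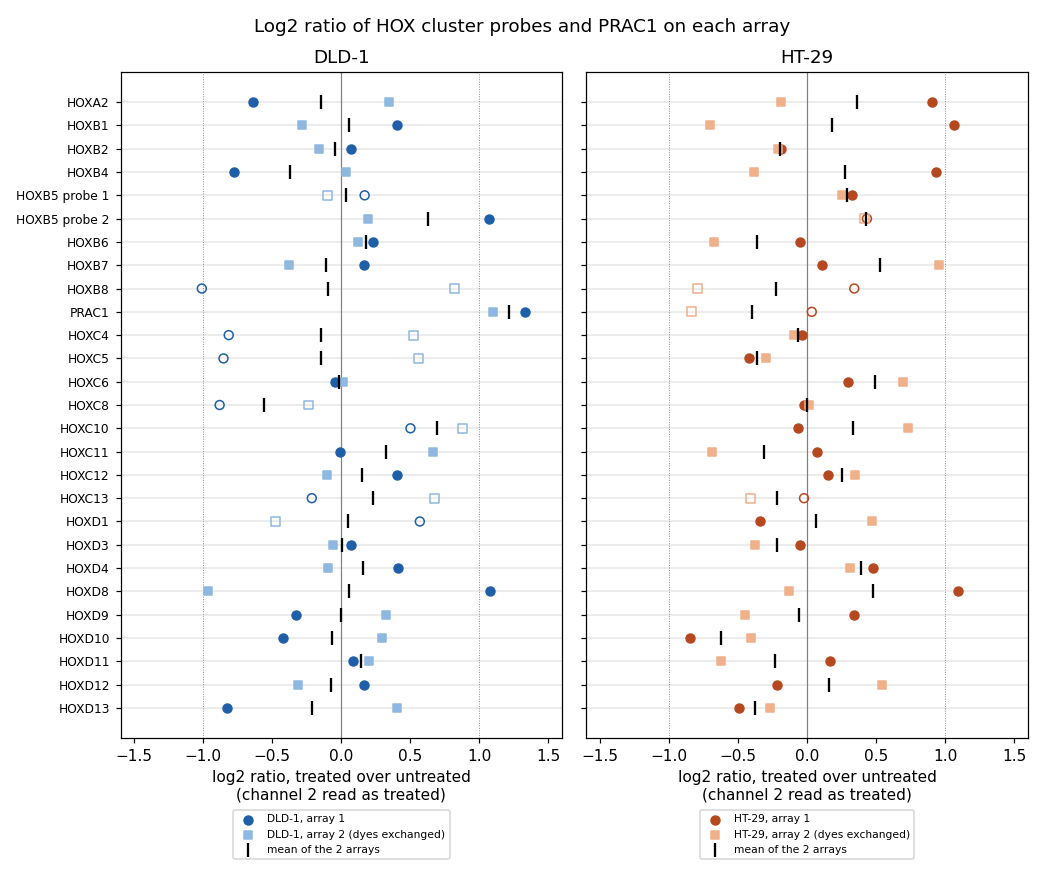
Log2 ratio of treated over untreated cells for each member probe (rows) on each array of DLD-1 (left) and HT-29 (right), with filled symbols where the probe was measured in that line, open symbols where it was not, and a bar at the mean of the 2 arrays. In DLD-1 only PRAC1 lies beyond 1 on both arrays, and for HOXD8 the 2 arrays lie on opposite sides of 0.

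By cluster, HOXA2, an anterior gene that patterns the hindbrain and branchial arches, had log2 ratios of −0.64 and 0.35 in DLD-1 and 0.91 and −0.19 in HT-29. It changed sign between the 2 arrays of each line. The 9 HOXA genes and the second HOXC4 probe that only descriptions named gave a median of −0.01 over 6 measured in DLD-1 and −0.15 over 7 in HT-29. Of their 11 probes, 0 were at least 2-fold changed on both arrays of either line. The second HOXC4 probe had the highest of these ratios, 1.21 and 0.09 in DLD-1 and 0.35 and 0.72 in HT-29, with a mean of 0.59 (limma adjusted p = 0.469). Without DLD-1 array 2, which leaves 1 array for DLD-1, its mean over the lines was 0.87.

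The HOXB cluster had a median of 0.007 in DLD-1, from −0.37 to 0.63 over 6 measured genes, and of 0.23 in HT-29, from −0.36 to 0.53 over 6. HOXB5 gave its value through a different probe in each line. The second probe was the measured one in DLD-1, at 1.07 and 0.19, and the first in HT-29, at 0.32 and 0.26. HOXB4, known for its role in blood stem cells, was the lowest measured member in DLD-1 at −0.78 and 0.04, and stood at 0.94 and −0.39 in HT-29. HOXB7, a central gene, was the highest in HT-29 at 0.11 and 0.95, and stood at 0.16 and −0.38 in DLD-1. HOXB8 was at background on array 1 of both lines.

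The HOXC cluster was measured at only 3 of 8 genes in DLD-1, with a median of 0.15, and at 7 of 8 in HT-29, with a median of −0.003. HOXC6 had log2 ratios of −0.04 and 0.01 in DLD-1 and 0.29 and 0.69 in HT-29. HOXC11, a posterior gene, was the highest measured HOXC gene in DLD-1 at −0.01 and 0.67, and in HT-29 it was at 0.07 and −0.69. HOXC13, known for hair and nail growth, was at background on array 1 of both lines. RefSeq gives HOXC4, HOXC5 and HOXC6 1 shared start, so their probes may read overlapping transcripts.

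The HOXD cluster had a median of 0.002 over 8 measured genes in DLD-1 and of −0.06 over 9 in HT-29. HOXD13, which shapes the digits, had log2 ratios of −0.83 and 0.40 in DLD-1 and −0.49 and −0.27 in HT-29. HOXD10 was at −0.43 and 0.30 in DLD-1 and at −0.85 and −0.41 in HT-29, the lowest mean of the members there, −0.63. Both genes were below 0 on both HT-29 arrays and on DLD-1 array 1. Transcripts of HOXD3 and HOXD4 overlap in RefSeq, and their probes may share signal.

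Grouped by position, anterior genes (paralog groups 1 to 4) had a median log2 ratio of −0.02 in DLD-1 (6 measured) and 0.12 in HT-29 (8 measured). Central genes (5 to 8) had 0.05 in DLD-1 (5 measured) and 0.29 in HT-29 (7 measured). Posterior genes (9 to 13) had −0.002 in DLD-1 (7 measured) and −0.14 in HT-29 (8 measured). All HOX genes together had 0.002 in DLD-1, over 18 genes, and 0.07 in HT-29, over 23 genes, beside −0.04 in DLD-1 and −0.004 in HT-29 for all genes. In the order of the labels the central genes of HT-29 stood at −0.02, so their position above the other groups was not kept.

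The 2 arrays of a line often differed in sign. In DLD-1 15 of 18 measured HOX genes (83.3%) had opposite signs on the 2 arrays, 3 were above 0 on both and 0 below on both. For all genes the shares were 67.3% with opposite signs, 15.8% above 0 on both and 16.9% below on both. In HT-29 11 of 23 (47.8%) had opposite signs, against 43.7% of all genes. The median of the HOX genes was 0.08 and 0.02 on the 2 DLD-1 arrays and 0.07 and −0.19 on the 2 HT-29 arrays.

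**Figure D3:**
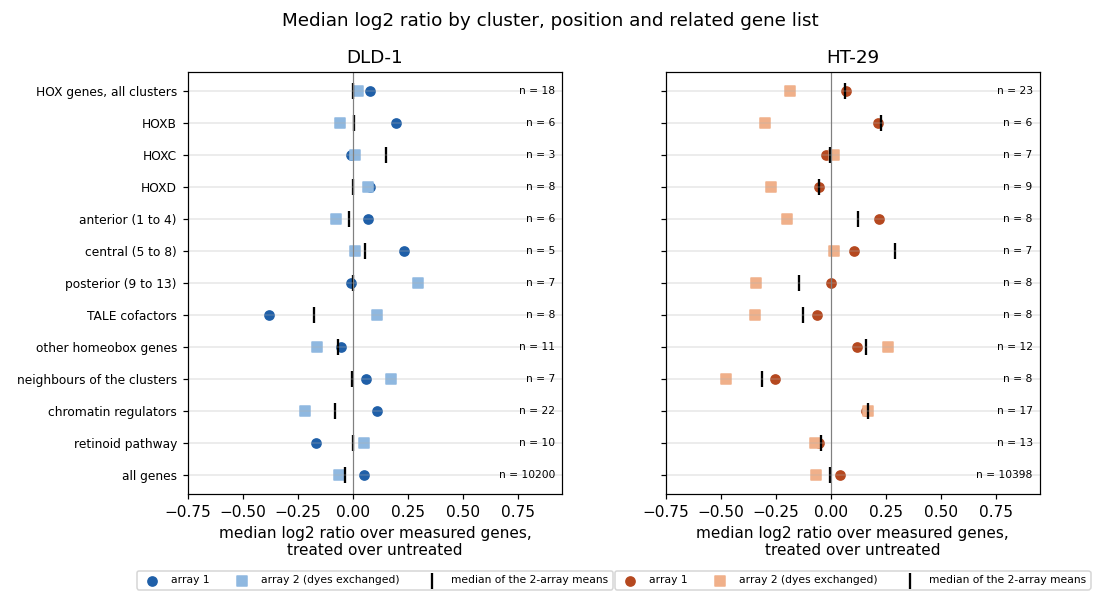
Median log2 ratio of treated over untreated cells in DLD-1 (left) and HT-29 (right) for the HOX genes by cluster and position, for the related gene lists and for all genes, with the 2 arrays of a line as separate symbols, a bar at the median of the 2-array means and the number of measured genes at the right. The HOX median is 0.002 in DLD-1 and 0.07 in HT-29. The neighbours of the clusters have the lowest median in HT-29, −0.31.

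The average of both channels of a spot does not depend on which channel held treated RNA, and it was compared between the lines after quantile normalisation between arrays. It mixes treated and untreated cells, and it has no test because a line is 1 replicate. DLD-1 was at least 2-fold lower than HT-29, with no overlap between arrays, at 5 of 25 member probes above background in a line, and higher at 1. Over all such probes, 2364 of 24971 (9.47%) were higher in DLD-1 and 2048 (8.2%) lower. The 5 lower member probes were measured in HT-29 but not in DLD-1. They therefore entered the count only through the line where their signal was higher, and the count is no independent evidence of a line difference. Of the 5, 4 were HOXC genes, of 7 above background, and the median difference of the HOXC cluster was −1.52. That median is the value of HOXC5 itself. It rests on a DLD-1 array at background, since HOXC5 differed by −0.41 without DLD-1 array 2. With block medians of signal set equal HOXC5 differed by −0.71. The second HOXC4 probe, named only in the descriptions, is not in the median. The medians of the HOXB and HOXD clusters were −0.16 and 0.13.

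HOXC10, a posterior gene of the lumbar region and hindlimb, differed most. Its average log2 signal was 8.34 and 8.28 on the DLD-1 arrays and 11.34 and 10.30 on the HT-29 arrays. Neither channel was above background on either DLD-1 array, so the size of the difference is uncertain. From the 2-array mean of each line, HOXC10 was 5.71-fold higher in HT-29 than in DLD-1. Without HT-29 array 1 the log2 difference, DLD-1 minus HT-29, was −1.99. The nearest arrays of the 2 lines differed by −1.96, DLD-1 minus HT-29, on the log2 scale. HOXC10 was also the only HOX gene whose arrays were separated by at least 2-fold, beside 594 (2.38%) of all probes lower in DLD-1 and 653 (2.62%) higher.

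HOXC4, an anterior gene, had average log2 signals of 8.17 and 11.57 in DLD-1 and 12.02 and 11.97 in HT-29. HOXC8, which patterns the thoracic region, had 8.03 and 11.57 in DLD-1 and 11.77 and 12.60 in HT-29. Both were at background on DLD-1 array 1 and close to HT-29 on DLD-1 array 2, and the mean differences of −2.13 for HOXC4 and −2.38 for HOXC8 became −0.43 and −0.61 when the first DLD-1 array was left out. HOXC5 showed the reverse, 10.46 and 8.24 in DLD-1 against 10.60 and 11.14 in HT-29, at background on DLD-1 array 2. Its difference of −1.52 was −0.41 without that array and −0.71 with block medians of signal set equal. HOXC6 was at 12.54 and 12.49 in DLD-1 and 12.07 and 11.97 in HT-29, a difference of 0.49 that turned to −0.16 with block medians of signal set equal. The second HOXC4 probe differed by 0.49 in the opposite direction to the first, with overlapping arrays.

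HOXD1, the most anterior HOXD gene, had 9.52 and 9.76 in DLD-1 and 10.88 and 10.73 in HT-29, a difference of −1.16. Neither channel was above background on DLD-1 array 1, and without that array the difference was −1.04. HOXD3 was the HOX gene higher in DLD-1, at 10.55 and 10.93 against 8.15 and 10.08 in HT-29, a difference of 1.63. Without HT-29 array 1 it was 0.67, under 2-fold, and without HT-29 array 2 it was 2.60. HOXB2, at 10.45 and 10.17 in DLD-1 and 9.17 and 9.53 in HT-29, and HOXD8, at 11.47 and 11.26 in DLD-1 and 10.44 and 10.50 in HT-29, were higher in DLD-1 without overlap but by less than 2-fold. Lack of overlap was common. Of 24 HOX probes above background in a line, 6 were higher and 5 lower in DLD-1 without overlap (45.8%), beside 33.1% of all such probes. With block medians of signal set equal the differences were 0.22 for HOXB2 and 0.54 for HOXD8. The 2 HOXB5 probes went in opposite directions. The first differed by −0.83, with overlapping arrays, and the second by 0.44, without overlap. HOXC10 and HOXD1 were at least 2-fold lower in DLD-1 under all 8 settings tried, and the other members of the list were not. Without HT-29 array 2, which stood apart, the difference was −3.04 for HOXC10 and −1.24 for HOXD1.

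**Figure D4:**
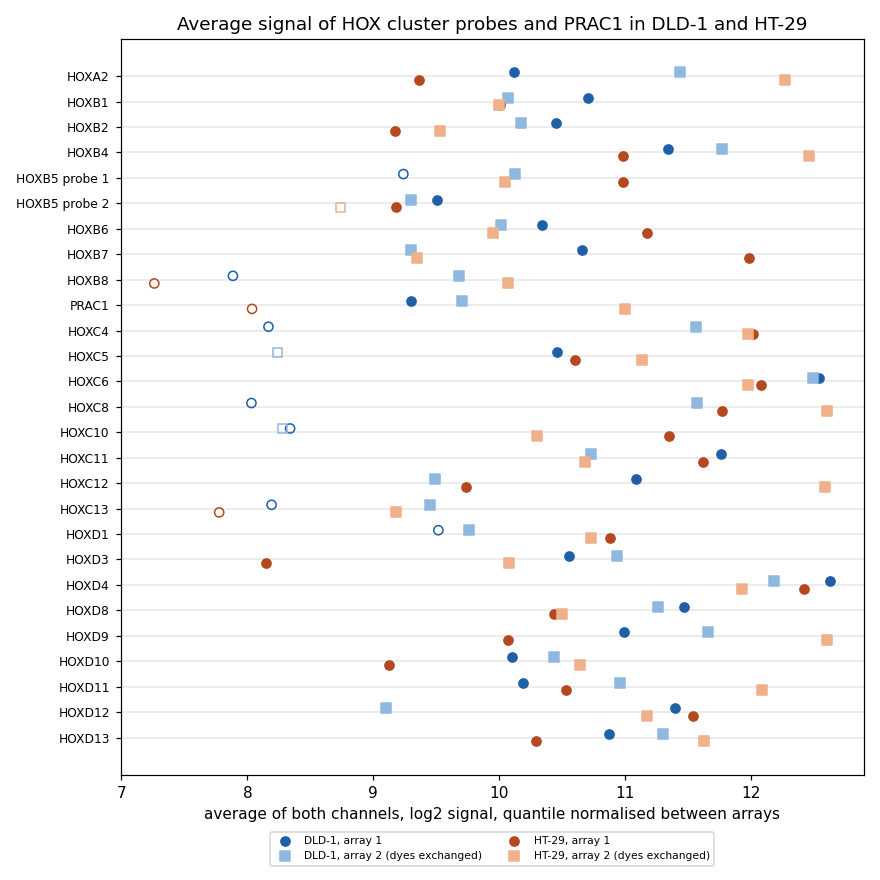
Average log2 signal of both channels, after quantile normalisation, for each member probe (rows) on the 2 DLD-1 and the 2 HT-29 arrays, with open symbols where neither channel was above background on that array. HOXC10 lies near 8.3 on both DLD-1 arrays and at 10.30 and 11.34 on the HT-29 arrays, whereas HOXC4 and HOXC8 differ between the 2 DLD-1 arrays.

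Genes that act with or upon the HOX clusters were examined in 5 lists, and limma called 0 members of each over both lines. The lists had 7 TALE cofactors, 10 other homeobox genes, 6 neighbours of the clusters, 17 chromatin regulators and 10 genes of the retinoid pathway tested. At an unadjusted p of 0.05, 1 member passed, in the retinoid list, and 0 in the others. Of all 9103 genes, 456 passed at that threshold. After adjustment 17 of all genes (0.187%) were called higher and 4 (0.0439%) lower. MEIS2, a TALE cofactor of HOX proteins, averaged −0.23 in DLD-1 and −0.40 in HT-29, with a mean of −0.32 (limma adjusted p = 0.988). ASH2L and MEN1, subunits of KMT2 complexes that methylate histone H3, averaged −0.38 and 0.30 over the lines (limma adjusted p = 0.988 each). MEIS2, ASH2L and MEN1 each changed sign between the DLD-1 arrays but not between the HT-29 arrays. CDX2, the intestinal homeobox gene, averaged 0.18, with −0.06 and 0.002 in DLD-1 and −0.20 and 0.95 in HT-29. The positive mean thus came from HT-29 array 2, and in the order of the labels it was −0.30.

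The neighbours of the clusters had a median log2 ratio of −0.004 over 7 measured in DLD-1 and −0.31 over 8 in HT-29. In HT-29 5 of the 8 were below 0 on both arrays and 0 above on both. Of all genes in HT-29, 28.4% were below 0 on both arrays and 27.9% above. With block medians set to 0 the HT-29 median was −0.06, and in the order of the labels 0.11. LNPK, beside the HOXD cluster, averaged 0.16 in DLD-1 and −0.45 in HT-29. The median of all genes in HT-29 was −0.004.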

How the data were processed

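Per the labels' protocols, total RNA was extracted with TriZol, amplified and coupled to Cy3 or Cy5. For each channel the deposited scanner files give linear intensity with its local background and that background's SD. They also give a log2 ratio made by the authors, channel 1 divided by channel 2. With its sign turned it matched the series table within 0.01 at all values compared, and it served as an alternative. The scanner is not given in the sources used.

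Ratios were recomputed in R 4.3.3 with limma 3.58.1: normexp background correction (offset 50), then 1 loess curve per array, fitted without controls and bad spots. Several probes of a gene were averaged. Names came from the platform table, updated with the RefSeq GRCh38.p14 gene table, and from file descriptions for probes without a symbol. The arrays of a line were averaged, and lmFit and eBayes gave a two-sided test of 2 line means against 0. Adjustment was by Benjamini-Hochberg over every gene tested. The number of arrays limits precision. The limma test alone was tried on simulated line means with known changes. The steps before it were not.

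The members and lists were chosen with earlier results of these data known. Genes named were PRAC1, the 3 highest and 3 lowest means in each line, members changed at least 2-fold on both arrays, and the 5 largest signal differences in each direction. In other lists up to 4 genes were named, by size of mean. Sequences are from RefSeq. The methylation-specific PCR that the series describes was not analysed here.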

Additional observations from a re-analysis of the deposited data

Results flagged for a closer look

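HOXB6, a central gene of the HOXB cluster, had log2 ratios of 0.23 and 0.12 on the 2 DLD-1 arrays and −0.05 and −0.67 on the 2 HT-29 arrays, so that both arrays of 1 line lay above 0 and both of the other below. The DLD-1 mean minus the HT-29 mean was 0.54 on the log2 scale. The difference was not tested. With the labels' channel order the sign of the second ratio of each line turns, and the pattern is lost.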

How the results depend on the processing

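Of 100 values of main results recomputed under another setting, 64 stayed within their limits and 36 moved; of 241 for single members, 198 stayed and 43 moved. No called value turned its direction, but signs turned at 4 of 16 values of a HOX median, 38 of 174 of a member's log2 ratio and 1 of 67 of a member's signal difference (HOXC6). Against 17 genes higher and 4 lower over both lines, limma called 57 and 2 with channel 1 as treated on the dye-exchanged arrays, 4 and 0 with block medians set to 0, 2 and 0 with background subtracted without normexp, 33 and 7 with no filter on dim probes, 10 and 1 with both channels above background, and 0 lower from the deposited log2 ratios. With 1 array left out, the counts were 8 and 0 when it was the first of DLD-1 and 258 and 99 when it was the second. They were 5 and 0 when it was the second of HT-29, and 10 were higher when it was the first. HOX genes called higher ranged from 0 to 1, the call being HOXD8 without DLD-1 array 2. The HOX median of DLD-1, 0.002, was 0.06 in the labels' order and 0.069 from deposited ratios, and from 0.037 to 0.072 without 1 array; that of HT-29, 0.065, was −0.212 without array 1, 0.07 without array 2 and from −0.003 (no filter on dim probes) to 0.177 (deposited ratios) under the other settings. The single DLD-1 member at least 2-fold higher, PRAC1, was 0 in the labels' order, with block medians at 0, from deposited ratios and with both channels above background. Members higher in DLD-1 signal numbered 2 with array medians set equal, with block medians of signal set equal or with background subtracted without normexp, and also 2 when the second DLD-1 array was dropped. Dropping the first HT-29 array gave 0 higher and 11 lower, and dropping the second gave 6 higher and 8 lower. Those lower numbered 3 without normexp. The causes were not tested. Each log2 ratio set the treated channel against the untreated channel of the same spot, so the treatment comparison was paired by design. Arrays of DLD-1 could not be paired with arrays of HT-29, because the labels give no replicate numbers that link them.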

Other observations

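MEOX2, a mesodermal homeobox gene, had log2 ratios of 1.02 and −0.80 in DLD-1 and 1.29 and −0.52 in HT-29. Its mean over the lines was 0.25 (limma adjusted p = 0.988), and in the order of the labels it was 0.91 (limma adjusted p = 0.0334), the only member of the related lists called under either reading. RXRG, a retinoid X receptor, had the highest mean of the retinoid list, 0.50 (limma adjusted p = 0.728), with 0.57 and −0.44 in DLD-1 and 1.53 and 0.36 in HT-29.

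Members at background on array 1 of both lines and above it on array 2 of both were HOXB8 and HOXC13. HOXA13, which only the descriptions named, was at background in every channel of the 4 arrays.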
